A study of Homo sapiens with 2 samples.

Results

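The genes described here control how pyruvate, the end product of glycolysis, enters mitochondrial oxidation. They are the 4 pyruvate dehydrogenase kinases (PDK1 to PDK4), the opposing phosphatases PDP1 and PDP2, PDHA1 and PDHB, which encode the E1 subunits of the pyruvate dehydrogenase complex, and MPC1 and MPC2, which form the mitochondrial pyruvate carrier. Members were taken as all probe sets whose single annotated gene symbol was on this list of 10 genes. This gave 24 of 54675 probe sets, for 9 of 19775 genes. No probe set was paired with PDP2, and it was not analysed here. The list was selected on values measured here: it was drawn up with the hepatosphere against differentiated differences of these arrays known, that of PDK4 among them, so every value is a description and none was tested.

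Total RNA came from PLC/PRF/5, an established human hepatocellular carcinoma line, on 2 Affymetrix U133 arrays. The first array held chemoresistant hepatospheres, tumour spheroids exposed to cisplatin, which crosslinks DNA, together with doxorubicin, which poisons topoisomerase II. The second held their differentiated counterparts, obtained by giving spheroids fetal bovine serum (FBS) and letting them attach. Spheroid growth, serum and attachment differed together, and the labels leave unsaid whether the spheroids that became differentiated cells had met the drugs. The 2 arrays had 1 culture each and no replicates, so no difference has an error and drug, serum and attachment cannot be told apart. In whole cultures, a change in the share of some cells and a change in RNA per cell cannot be told apart either.

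The pyruvate dehydrogenase complex sits in the mitochondrial matrix and turns pyruvate into acetyl-CoA for the citrate cycle. Pyruvate reaches it through the carrier in the inner membrane. The kinases phosphorylate the E1 alpha subunit and switch the complex off, and the phosphatases switch it on again. PDK4 is the kinase induced in fasted liver and muscle, with PPARA, FOXO factors and glucocorticoids among its known inducers, whereas PDK1 is a classic target of the hypoxia-inducible factor HIF1A.

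The unit is the MAS5 signal, which is linear in brightness. A signal under the floor of 84.1, the higher of the medians of the arrays, was set to the floor, so that a fold against it is a lower bound written "at least". A difference is the log2 signal of hepatospheres less that of differentiated cells, and "apart" means at least 2-fold. Array-wide values bear on all of them. The 2% trimmed mean was 500.1 on both arrays, but the 24 spiked poly(A) control probe sets were 2.07-fold brighter in hepatospheres, against 1.14-fold for the 18 hybridisation controls. The ACTB 3' to 5' ratio was 2.64 in hepatospheres and 1.48 in differentiated cells, and the GAPDH ratio was 1.04 and 0.987 in the same order. Of 9 liver markers 8 had a probe set, and all 8 reached the floor, with summed signals of 163522 in hepatospheres and 106928 in differentiated cells. Among them TTR, APOA2 and ALB were 5.62-fold, 5.07-fold and 2.71-fold higher in hepatospheres and KRT8 2.16-fold lower. Of 10 markers of other cell types 7 lay below the floor on both arrays, among them the leukocyte gene PTPRC at 4.38 in hepatospheres and 25.1 in differentiated cells. Their summed signals were 4658 and 3929 in the same order, of which PECAM1 made up 3787 and 3388. The 3 that reached the floor all lay above 0, PECAM1 at 0.16, COL1A1 at 0.70 and DCN at a bound of 0.72. Probe sets of PECAM1 spanned -0.04 to 2.04 and those of COL1A1 -0.37 to 1.99. The part of these values in the results below was not tested.

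PDK4 was the member that stood far apart, and its probe sets all showed it. The brightest PDK4 probe set read 8343 in hepatospheres and 62.3 in differentiated cells, the next 1699 in hepatospheres and 10.2 in differentiated cells, and the dimmest 610.4 in hepatospheres and 9.99 in differentiated cells. Each was well above the floor in hepatospheres and below it in differentiated cells, so PDK4 signal was detected over the floor on 1 array only. Against the floor these are at least 99.2-fold, at least 20.2-fold and at least 7.25-fold higher in hepatospheres. The plain signal ratios, which divide by readings under the floor, were 134, 166 and 61.1 in the same order. With bounds taken at their bound, PDK4 came at place 3 of 12766 genes by difference, an order that the floor sets in part and that the choice of the gene already used. Of 2836 genes with at least 3 probe sets at the floor, 72 (2.54%) had all of them apart and higher. Nothing is read from PDK4 being among them, since its difference was known when it was chosen and its probe sets reached the floor only through hepatospheres.

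The other 3 kinases were within 2-fold on their brightest probe sets, without a shared direction. PDK1 read 1526 in hepatospheres and 1174 in differentiated cells, a difference of 0.38, which turned to -0.67 when the arrays were scaled to the poly(A) controls. Its dimmer probe sets disagreed with each other. One read 245 in hepatospheres and 265 in differentiated cells (-0.11). The other read 272 in hepatospheres and 84.8 in differentiated cells, just over the floor, and was 3.21-fold higher.

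PDK2, the most widely expressed kinase of the family, read 443 in hepatospheres and 532 in differentiated cells on the brighter of its probe sets (-0.26), and 458 in hepatospheres and 288 in differentiated cells on the other (0.67). The direction of PDK2 therefore depended on the probe set, and the mean of both stood at 0.20. Both carry names that mark sequence shared between transcripts. PDK3, an isoform known from testis and other tissues, read 2126 in hepatospheres and 3027 in differentiated cells on its brightest probe set (-0.51). Its 3 other probe sets at the floor stood at -0.36, -0.29 and -0.04, so all 4 were lower in hepatospheres but none by 2-fold. The remaining PDK3 probe set was below the floor on both arrays, at 62.4 in hepatospheres and 53.9 in differentiated cells.

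**Figure D1:**
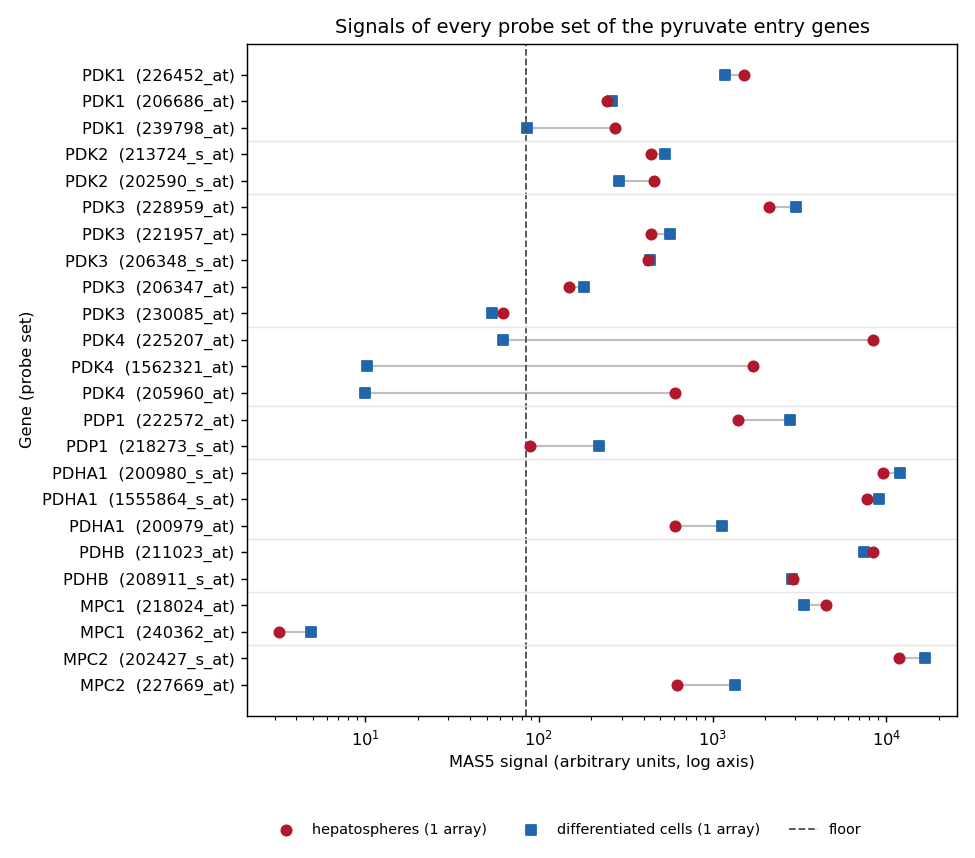
MAS5 signal (log axis) of all 24 probe sets of the 9 genes, with hepatospheres as red circles and differentiated cells as blue squares, 1 array each, and the floor of 84.1 as a dashed line. All 3 PDK4 probe sets lie left of the floor in differentiated cells and at 610.4 to 8343 in hepatospheres, while the paired points of most other probe sets lie close together.

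The promoters of the kinases are shown because PDK4 stood at 6.63 while the other 3 genes of the family were within 2-fold. Each is the 250 bases before a start site in RefSeq (GRCh38.p14), 5′ to 3′ on the strand of the gene, and where a gene had several start sites the window with the most CpG was taken. They lie at chr7:95596517-95596766 on the minus strand for PDK4, and on the plus strand at chr2:172555840-172556089 for PDK1, chr17:50095101-50095350 for PDK2 and chrX:24465036-24465285 for PDK3. Capitals mark matches on either strand to the hypoxia response core (ACGTG or GCGTG) or the CCAAT box (CCAAT).
PDK4: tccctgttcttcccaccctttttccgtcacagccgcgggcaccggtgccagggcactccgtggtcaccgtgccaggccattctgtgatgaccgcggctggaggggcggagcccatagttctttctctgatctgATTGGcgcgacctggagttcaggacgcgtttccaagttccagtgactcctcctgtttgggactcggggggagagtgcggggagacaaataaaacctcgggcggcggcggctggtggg
PDK1: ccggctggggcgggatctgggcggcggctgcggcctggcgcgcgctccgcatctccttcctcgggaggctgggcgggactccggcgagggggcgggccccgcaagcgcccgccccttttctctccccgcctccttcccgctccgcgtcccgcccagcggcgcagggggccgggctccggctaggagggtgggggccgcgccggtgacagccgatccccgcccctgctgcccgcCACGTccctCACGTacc
PDK2: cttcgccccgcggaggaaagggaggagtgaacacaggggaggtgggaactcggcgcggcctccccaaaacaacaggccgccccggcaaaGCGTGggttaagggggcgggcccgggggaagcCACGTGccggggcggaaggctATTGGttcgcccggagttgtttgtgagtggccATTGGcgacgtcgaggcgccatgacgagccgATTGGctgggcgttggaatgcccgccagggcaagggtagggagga
PDK3: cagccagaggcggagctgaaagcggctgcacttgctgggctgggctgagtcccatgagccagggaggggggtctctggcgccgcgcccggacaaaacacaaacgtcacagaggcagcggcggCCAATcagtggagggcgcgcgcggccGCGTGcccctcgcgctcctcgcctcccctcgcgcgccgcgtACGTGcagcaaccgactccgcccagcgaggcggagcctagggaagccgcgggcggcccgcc

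The hypoxia response core occurred at 2 places in the PDK1 window, 17 and 8 bases before the start site, at 3 in PDK2, of which 2 overlap as a palindrome, at 2 in PDK3 and at 0 in PDK4. It was in 1 of the 2 start site windows of PDK1 and in 1 of the 3 of PDK2, while PDK3 and PDK4 had 1 window each. Of all 35116 promoter windows of this length, 43.2% held it, and among the members with a window so did PDP2, PDHA1, PDHB and MPC1, but not MPC2. The windows shown were picked for CpG, which the core contains, so this share over all windows is not a like comparison. The CCAAT box, present in 32% of all windows, occurred 1 time in PDK4, 3 times in PDK2 and 1 time in PDK3. A FOXO motif (GTAAACA, 2.98% of windows), an extended nuclear receptor half-site (AAGGTCA, 3.44%) and a TATA box (TATAAA, 10.7%) were found in none of the 4 windows. CpG numbered 19 in PDK4, 34 in PDK1, 24 in PDK2 and 32 in PDK3, against a median of 11 over all windows. The windows of PDK1 and PDK2 were picked for the most CpG, so for them that median is not a like comparison. The motif hits are matches of letters only, in windows that leave out distal elements.

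PDP1, the calcium-stimulated phosphatase that reactivates the complex, had the lowest difference of the members on their brightest probe sets. Its brighter probe set read 1392 in hepatospheres and 2800.4 in differentiated cells, 2.01-fold lower. The other read 88.7 in hepatospheres, barely over the floor, and 222 in differentiated cells, 2.50-fold lower. Both probe sets went the same way, and of 6230 genes with at least 2 probe sets at the floor 201 (3.23%) had all of them apart and lower. Nothing is read from PDP1 being among them, since the list was drawn up with these differences known. The difference of -1.01 lay on the 2-fold line: it stood at -0.96 with quantile normalization, -0.92 with loess and -0.97 with log2 of signal plus floor. Without shared-sequence probe sets it stayed at -1.01, and MPC2 stood lower, at -1.10.

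The E1 subunits and the carrier were within 2-fold on their brightest probe sets, with larger differences on a dimmer one of PDHA1 and of MPC2. PDHA1, whose product carries the phosphorylated serines, read 9539 in hepatospheres and 11955 in differentiated cells on its brightest probe set (-0.33), and 7742.5 in hepatospheres and 9082 in differentiated cells on the second (-0.23). The dimmest read 610.2 in hepatospheres and 1137 in differentiated cells (-0.90), so all 3 were lower in hepatospheres and none by 2-fold. PDHB, the partner subunit of E1, read 8431 in hepatospheres and 7462 in differentiated cells (0.18), and 2898 in hepatospheres and 2849 in differentiated cells on the other probe set (0.02). PDHB was the member with the smallest difference, and its sign turned with median centring (-0.08) and with poly(A) scaling (-0.87).

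The carrier subunits, which work as a heterodimer, went opposite ways. MPC1 read 4487 in hepatospheres and 3353 in differentiated cells (0.42, but -0.63 with poly(A) scaling), and its other probe set was below the floor at 3.20 in hepatospheres and 4.88 in differentiated cells. MPC2 read 11796 in hepatospheres and 16751 in differentiated cells (-0.51). The dimmer MPC2 probe set, the one whose name marks no shared sequence, read 625 in hepatospheres and 1339.8 in differentiated cells and was 2.14-fold lower.

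Counted by their brightest probe sets, 1 of 9 members was apart and higher (PDK4), where 12.5% of all 12766 genes at the floor were, and 1 was apart and lower (PDP1), where 8.83% of all genes were. Together 2 of 9 members were apart, beside 21.4% of all genes. The other 7 lay between -0.51 and 0.42, the median of the 9 was -0.26 and that of all genes 0.05. Of the 22 member probe sets at the floor, 4 were apart and higher (11.6% of all probe sets), namely those of PDK4 and the dim one of PDK1. Another 3 were apart and lower (9.59%), those of PDP1 and the dimmer one of MPC2. Probe sets of a gene that differed by 1 or more on the log2 scale occurred in 27.3% of genes with at least 2 at the floor, and among members in PDK1 (1.79) and PDK4 (3.77, from bounds).

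**Figure D2:**
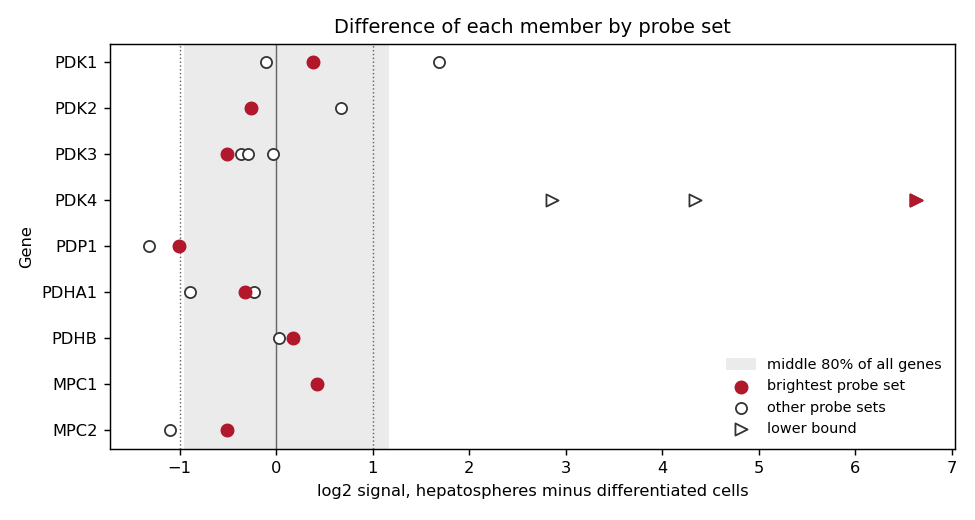
Log2 difference, hepatospheres minus differentiated cells, for each probe set at the floor, by gene, with the brightest in red, lower bounds as triangles, 2-fold as dotted lines and the middle 80% of all genes (-0.95 to 1.16) in grey. PDK4 lies at 2.86 to 6.63 and both PDP1 probe sets at or below -1.01. The scale is that of the deposited signals, and with poly(A) scaling PDK1, PDHB and MPC1 turn negative.

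Genes whose pair of signals was most like that of a member were found by the distance between floored log2 signals, over 2 arrays only. Nearest to PDK4 were SERPINE2 (distance 0.35; 6557 in hepatospheres and 63.4 in differentiated cells), SERPINI1 (0.46; 7985 and 116 in the same order), the noncoding RNA LINC01419 (0.48) and CHGB (0.61), all at least 65.1-fold higher in hepatospheres. Nearest to PDK1 were NT5DC1, KLHL24, RIPOR1 and VARS2, at distances of 0.01 to 0.02 and with differences of 0.36 to 0.37.

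PDK4 lies on chromosome 7, on the long arm that also carries ABCB1. Of the 5 measured genes on either side of PDK4 in gene order, 3 were apart and higher and 1 apart and lower. Over all genes these shares were 12.5% and 8.83%, and with 10 neighbours a member nothing is read from such counts. PON3 and PON2, which encode lactonases, read 14197 and 30642 in hepatospheres against 4581 and 14974 in differentiated cells, 3.10-fold and 2.05-fold higher, and PPP1R9A was 2.45-fold higher. The mitochondrial aspartate-glutamate carrier gene SLC25A13 was 2.03-fold lower. ASB4 and DYNC1I1, the closest measured genes before and after PDK4, stood at 0.09 and at a bound of 0.73. The median of these 10 neighbours was 0.72, against 6.63 for PDK4.

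Around PDP1 on chromosome 8 the median of 10 neighbours was 0.46, with 3 apart and higher and 1 apart and lower, while PDP1 itself was lower. PDK3 on chromosome X had 10 neighbours with a median of -0.69, of which 1 was apart and higher and 3 apart and lower. SAT1 was 2.17-fold higher, ZFX 2.80-fold lower, the polymerase gene POLA1 4.80-fold lower and MAGEB2 7.12-fold lower. The 10 neighbours of PDK2 had a median of 0.66 and 4 of them were apart and higher, which PDK2 was not. Beside all these counts, 12.5% of all genes were apart and higher and 8.83% apart and lower. Those of the other members had medians from -0.37 around PDK1 to 0.19 around MPC1.

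**Figure D3:**
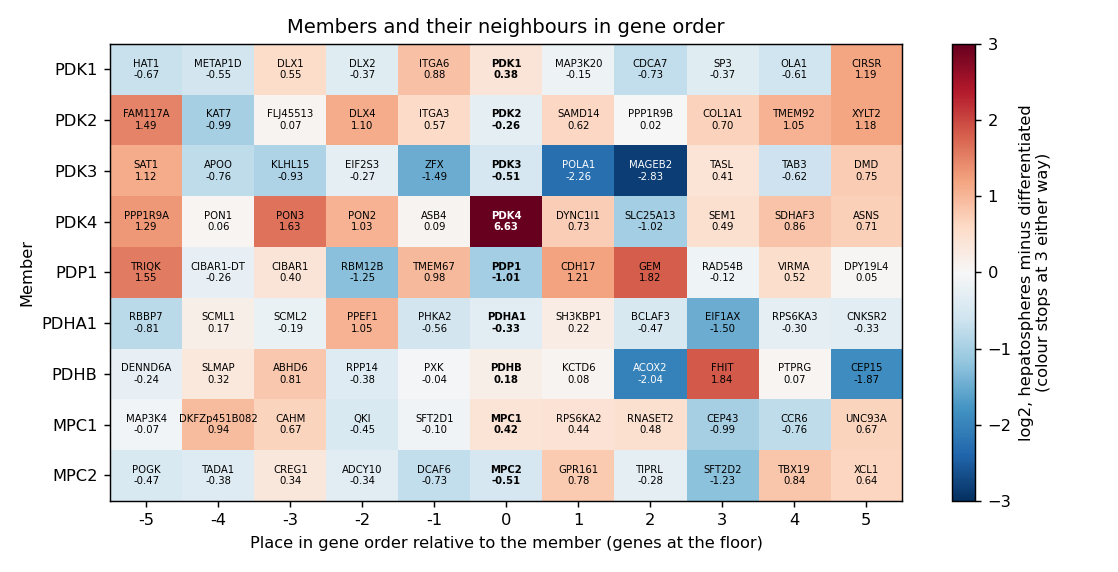
Log2 difference, hepatospheres minus differentiated cells, of each member (place 0, bold) and of the 5 genes at the floor on either side in gene order, with colour from blue (lower) to red (higher) that stops at 3. PDK4 at 6.63 stands between ASB4 at 0.09 and DYNC1I1 at 0.73. Signs hold relative to the deposited scaling, since poly(A) scaling shifts the median of all genes to -0.94.

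Other genes of the complex, of its lipoylation and of its phosphatase were within 2-fold on the brightest probe set in all 6 measured. Of the 6, 5 lay below 0 (median -0.43). Over all genes at the floor 21.4% were apart and the median was 0.05. This group and those that follow are small, and nothing is read from their counts. DLAT, the E2 acetyltransferase core, read 2194 in hepatospheres and 4017 in differentiated cells (-0.87, with -1.12 on another probe set), and DLD, the shared E3 dehydrogenase, 6168 and 6126 in the same order (0.01, with -0.88 on another probe set). LIAS and LIPT1, which act in making and transferring the lipoyl group, stood at -0.52 each, PDPR, a regulatory subunit of the phosphatase, at -0.34, and PDHX, which tethers E3, at -0.19. PDHA2, the testis form of E1 alpha, was below the floor on both arrays.

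The related branched-chain ketoacid dehydrogenase, which is also switched by a kinase and a phosphatase, had 1 of 5 genes apart and higher and 0 lower (median 0.44). Of all genes at the floor, 12.5% were apart and higher and 8.83% apart and lower. Its E1 alpha gene BCKDHA read 1798 in hepatospheres and 851 in differentiated cells, 2.11-fold higher. Its phosphatase gene PPM1K stood at 0.95 on the brightest probe set and at 1.01 on another. DBT stood at 0.44, with another probe set at 1.17. The kinase gene BCKDK stood at 0.05 and the E1 beta gene BCKDHB at -0.93, the last with another probe set at 0.53.

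Genes that exchange pyruvate with lactate had 1 of 6 measured members apart and higher and 1 lower (median 0.40). The shares over all genes were 12.5% and 8.83%. LDHB, the lactate dehydrogenase subunit common in oxidative tissues, read 261 in hepatospheres and 723 in differentiated cells, 2.77-fold lower, and its probe sets at the floor spanned -3.55 to -1.47. LDHA, the subunit common in glycolytic cells, read 23517 in hepatospheres and 26441 in differentiated cells (-0.17). LDHD, which acts on D-lactate, read 226 in hepatospheres and 22.5 in differentiated cells, at least 2.69-fold higher. BSG, the chaperone of lactate transporters, stood at 0.62. The listed transporter genes themselves gave no difference. SLC16A1 and SLC16A3 had no probe set with a single symbol, and SLC16A7 and SLC16A8 were below the floor on both arrays.

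Among 9 other measured enzymes that act on pyruvate or, as PCK1 and PCK2 do, on phosphoenolpyruvate, 2 were apart and higher and 0 lower (median 0.34). Beside this, 12.5% of all genes were apart and higher and 8.83% apart and lower. PCK1, the gluconeogenic enzyme that bypasses pyruvate kinase, was 19.9-fold higher, at 2740 in hepatospheres and 138 in differentiated cells. PKLR, the liver pyruvate kinase, was at least 6.35-fold higher on the brightest probe set and stood at 0.54 on another. The brighter pyruvate kinase gene PKM read 3189 in hepatospheres and 3969 in differentiated cells (-0.32, with 0.68 on another probe set). Pyruvate carboxylase (PC), the alternative mitochondrial fate of pyruvate, read 570.0 in hepatospheres and 760.4 in differentiated cells (-0.42). Malic enzyme genes ME1 and ME2 stood at 0.35 and 0.19.

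The group of acetyl-CoA sources outside the complex also held SLC25A1 and ACO1, which handle citrate and do not make acetyl-CoA. Of its 7 genes 2 were apart and higher and 0 lower (median 0.32). Over all genes the shares were 12.5% higher and 8.83% lower. ACSS2, which makes acetyl-CoA from acetate in the cytosol, was 6.54-fold higher, at 4511 in hepatospheres and 690.1 in differentiated cells. CRAT, which transfers acetyl groups to carnitine, was 2.45-fold higher, and ACLY, which splits citrate, stood at 0.74. SLC25A1 stood at 0.31 and ACO1 at 0.32, which is the group median. ACSS1, the mitochondrial counterpart of ACSS2, stood at -0.60. ACAT1 was lowest, at -0.78 on the brightest probe set and at -0.15 on another.

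Of 13 measured citrate cycle genes 0 were apart (median 0.16), where 21.4% of all genes were. CS, which encodes citrate synthase and takes up the acetyl-CoA the complex makes, was lowest, at 3317 in hepatospheres and 6205 in differentiated cells (-0.90). SUCLG2 (0.75) and MDH2 (0.74) were highest. Calcium uniporter and outer membrane channel genes also had 0 of 7 apart on the brightest probe set (median 0.09). The channel gene VDAC3 stood at -0.32 there and at -1.38 on another probe set.

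Of 15 measured factors known to act on transcription of the kinases, 1 was apart and higher and 0 lower (median -0.33). Among all genes 12.5% were apart and higher and 8.83% apart and lower. PPARA, the fatty acid sensing receptor, read 1282 in hepatospheres and 398 in differentiated cells, 3.22-fold higher on the brightest probe set, although the lowest of its probe sets stood at -0.13. HIF1A read 7030 in hepatospheres and 4830 in differentiated cells (0.54), and EPAS1, which encodes HIF2 alpha, 5443 and 8247 in the same order (-0.60). The coactivator PPARGC1A stood at -0.43. FOXO1 stood at -0.64 on the brightest probe set and at 0.06 on the highest. The glucocorticoid receptor NR3C1 stood at -0.87 on the brightest and at -1.99 on the lowest. FOXO3 stood at 0.34 on the brightest probe set, within a range of -0.09 to 0.71, and ESRRG was below the floor on both arrays.

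**Figure D4:**
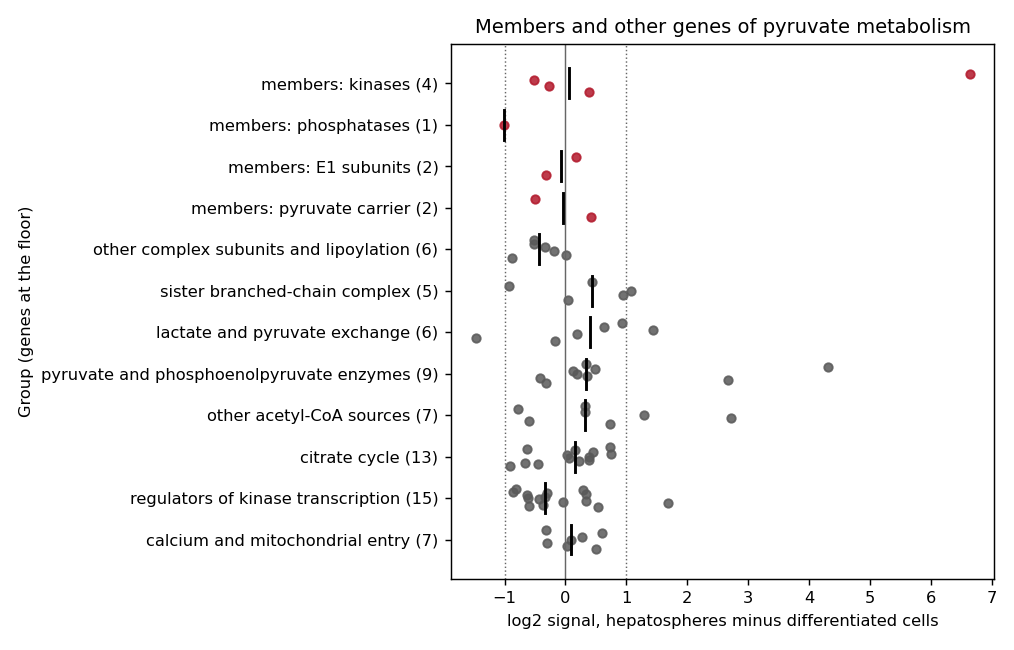
Log2 difference, hepatospheres minus differentiated cells, of each gene at the floor in the member groups (red) and in other groups of pyruvate metabolism (grey), with the number of genes in brackets, group medians as black bars, 2-fold as dotted lines and bounds drawn at their bound. PDK4 lies at 6.63 and PCK1 at 4.31, and citrate cycle genes lie within 2-fold. With poly(A) scaling all group medians outside the members were negative.

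Across the processing choices, the PDK4 difference ranged from 4.61, with the mean over its probe sets, to 7.07, with no floor or a floor at the 40th percentile, and PDK4 was apart and higher under all 10 alternatives. PDP1 ranged from -2.06 to -0.92. With poly(A) scaling PDK2, PDK3, PDHA1 and MPC2 also passed 2-fold lower, at -1.31, -1.56, -1.37 and -1.55. That scaling moved the median of all genes to -0.94. Relative to that median PDK4 stood at 6.78, PDP1 at -1.11, PDK1 at 0.27, PDK2 at -0.37, PDK3 at -0.61, PDHA1 at -0.43, PDHB at 0.07, MPC1 at 0.32 and MPC2 at -0.61, against 6.59, -1.05, 0.33, -0.31, -0.56, -0.37, 0.13, 0.37 and -0.55 with the deposited scaling.

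**Figure D5:**
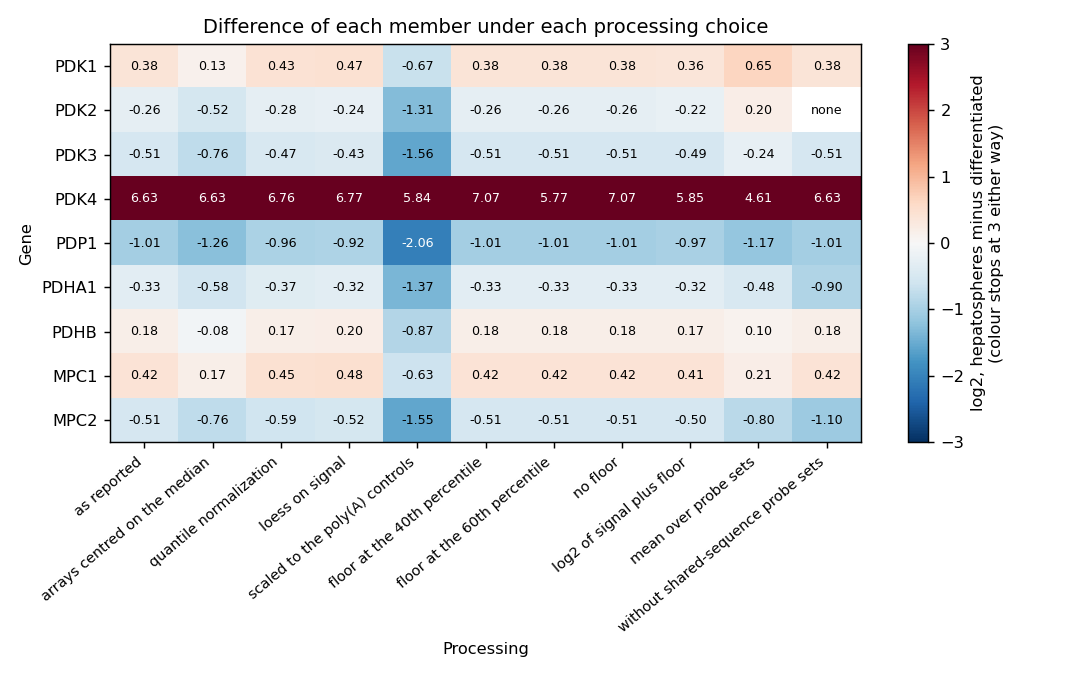
Log2 difference, hepatospheres minus differentiated cells, of each of the 9 members (down) under the reported processing and 10 alternatives (across), with colour that stops at 3 and "none" where no probe set was left. The PDK4 row stays between 4.61 and 7.07 and the PDP1 row between -2.06 and -0.92, whereas PDK1, PDHB and MPC1 turn negative with poly(A) scaling, PDHB also with median centring, and PDK2 turns positive with the mean over probe sets.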

How the data were processed

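Intensity was deposited by the authors as MAS5 signals, linear in brightness, per the submitters' processing notes and the values. MAS5 subtracts background and mismatch brightness and scales each array globally, which leaves weak signals noisy. No version or scaling target was given in the sources used here. Arrays were grouped by source name, 1 a group, so no test was possible, and their number limits precision.

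GEO's array annotation paired 41091 probe sets with 1 gene symbol, 1801 with several and 11721 with none. Of each gene the probe set of highest mean log2 signal was taken, and 12766 of 19775 genes reached the floor (50th percentile, 84.1) on at least 1 array. RefSeq (GRCh38.p14) gave gene order and promoters. Genes open to naming were the members, the groups described, the 4 genes nearest to PDK4 and to PDK1, and 5 neighbours on either side of each member. Members, groups and alternatives were chosen with earlier results of these data known. The counting was tested on simulated data. Software was matplotlib 3.10.9, statsmodels 0.14.6, pandas 2.3.3, numpy 2.4.6 and scipy 1.17.1 in Python 3.11.15.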

Additional observations from a re-analysis of the deposited data

How the results depend on the processing

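No paired analysis was possible because each group had 1 array, and for the same reason no array could be left out. The counts of members and of all genes, the member differences and the group medians were recomputed under 10 alternatives. Counts of member probe sets had 9, since a mean over probe sets leaves none to count. Other values were not recomputed, such as those of neighbours, nearest genes, markers and promoters, and shares over genes with several probe sets. The count of members apart and higher was 1 under all 10 alternatives, and that of member probe sets 3 or 4. The count of members apart and lower was 1 as reported, 0 with quantile normalization, loess (span 0.3) and log2 of signal plus floor, 2 without shared-sequence probe sets and 5 with poly(A) scaling. That of member probe sets was 3 as reported, 1 with log2 of signal plus floor and 14 with poly(A) scaling. Over all genes 1601 were apart and higher and 1127 lower, against 394 and 5856 with poly(A) scaling, and 1902 lower with median centring. With poly(A) scaling the group medians were -1.48 for other genes of the complex and its lipoylation, -0.61 for the branched-chain complex and -0.51 for lactate exchange. They were -0.70 for pyruvate and phosphoenolpyruvate enzymes, -0.73 for the acetyl-CoA group and -0.89 for the citrate cycle. Regulators stood at -1.38 and calcium entry at -0.96. All these medians carry a shift built into that scaling. Without shared-sequence probe sets lactate exchange stood at 1.17 and the acetyl-CoA group at -0.60, with fewer genes left. PDK2 had no probe set left there. Signals below the floor, those of PDK4 in differentiated cells, limit the folds that rest on them. So do signals near it, those of the dim PDP1 probe set in hepatospheres and the dim PDK1 probe set in differentiated cells.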
